A study of Mus musculus with 15 samples.

Results

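The high and the low dose of a BTK inhibitor were compared in mouse brain by RNA sequencing, over the 6 libraries titled for those doses of the 15 in the series. All 6 came from mice injected with MPTP, which poisons dopamine neurons, at 20 mg/kg/day into the peritoneum for 1 week. The inhibitor followed by mouth for 4 weeks, at 2 µg/kg/day in the high-dose group (3 libraries) and at 1 µg/kg/day in the low-dose group (3 libraries). The labels of the single samples give these doses as 50 and 25 pM instead, and all samples carry a time of 6 weeks. Values of 3 libraries from mice given MPTP and then a normal diet are set beside the doses, and the control and levodopa groups serve only to estimate the spread. The protocol names 8 mice per group. Whether every library stands for its own mouse is not stated, so p-values reflect only the spread between libraries, part or all of which may be technical. No label gives the strain, age or sex of the mice, the brain region or the name of the inhibitor.

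BTK, the Bruton tyrosine kinase, is a cytoplasmic kinase of B cells and of myeloid cells, microglia among them. It is switched on by SYK and SRC family kinases below antigen and Fc receptors and passes the signal through PLCG2 and protein kinase C to NF-kB. An inhibitor acts on the enzyme, so its own mRNA is not a direct measure of inhibition. The series title names Nurr1, the nuclear receptor encoded by Nr4a2, which dopamine neurons need to form and to keep their transmitter identity.

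No gene passed the test across all genes for a difference between the doses in edgeR. edgeR called 0 of 21821 genes (0%) at an adjusted p of 0.05, and the smallest adjusted p was 0.826, shared by the predicted noncoding RNA Gm30699 and the pseudogene Pisd-ps1. Gm30699, which the rule for named genes leaves out, had 8, 7 and 6 reads at the high dose and 0 at the low dose (unadjusted p = 6.64e-05). At an unadjusted p of 0.05, 486 genes (2.23%) passed, 232 of them higher (1.06%) and 254 lower (1.16%) at the high dose. DESeq2, run as an alternative, called 2 genes, Pisd-ps1 and Trpc2, both lower at the high dose. For Trpc2, chosen after its values were seen, this rests on 1 library: low-dose library 1 held 166 reads and the other 5 inhibitor libraries held 0.

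A p that misses the threshold does not show that the doses act alike, so the interval of each difference was taken from the same fit. The 95% interval lay within 2-fold in either direction for 12762 genes (58.5%) and within 1.5-fold for 7783 (35.7%). Each interval covers its own gene only. Among the 15714 genes with a mean of at least 1 CPM (counts scaled to library size, with TMM factors), 12149 (77.3%) had an interval within 2-fold. In that set the estimate itself passed 2-fold for 120 genes (0.764%), 52 higher (0.331%) and 68 lower (0.433%) at the high dose. Over all genes tested the median log2 difference, high minus low, was -0.01 and the median standard error was 0.29. Of the estimates, 48.4% were above 0. The intervals rest on the spread over all 15 libraries. In edgeR on the 6 inhibitor libraries alone, 14980 of 20195 genes had an interval within 2-fold and 1241 an unadjusted p under 0.05. Without control 2 and levodopa 2, these counts were 14841 and 1280 of 22324 genes. The smallest p on the 6 libraries was that of Ctxn3 (4.2e-05 in edgeR), which is not among the leading genes. Its standard error was 0.16 in that fit and 0.44 in the fit of all 15 libraries, where edgeR gave an unadjusted p of 0.0184. For the other single genes, intervals and standard errors come from the fit of all 15 libraries. They need not match the spread of the 6 inhibitor libraries alone.

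**Figure D1:**
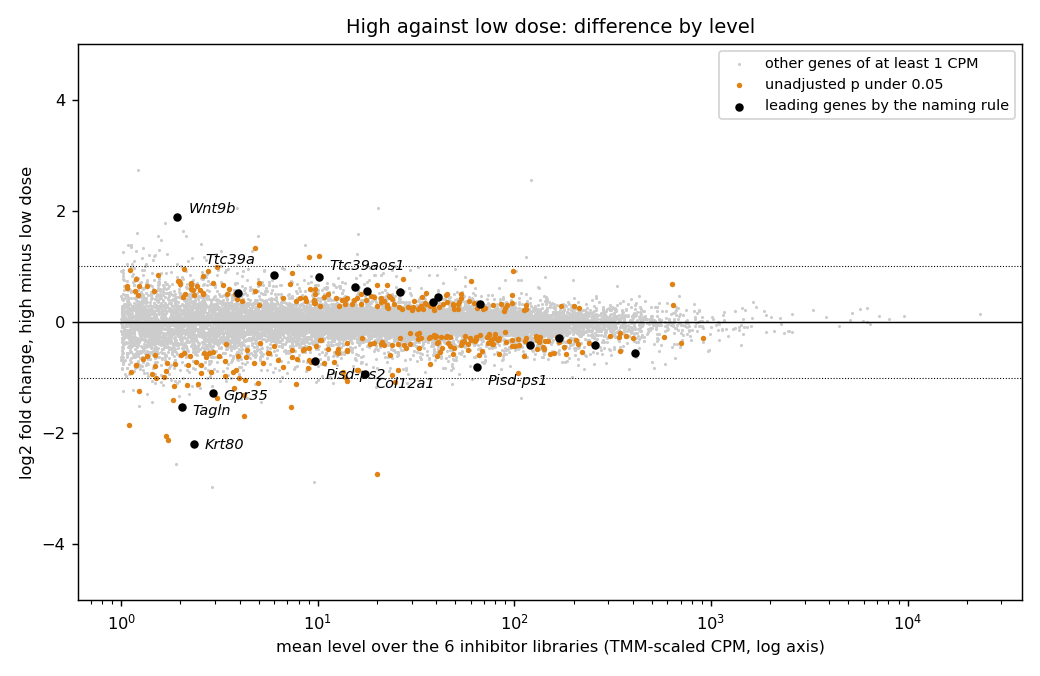
Difference between the doses (vertical axis, log2 fold change, high minus low) against the mean level in the 6 inhibitor libraries (horizontal axis, TMM-scaled CPM, log scale) for the 15714 genes of at least 1 CPM. Orange points have an unadjusted p under 0.05, black points are the 20 leading genes, and dotted lines mark 2-fold; no point passed the adjusted threshold in edgeR.

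Of the 10 leading genes on the lower side, 2 were copies of 1 gene. Pisd encodes phosphatidylserine decarboxylase, the mitochondrial enzyme that makes phosphatidylethanolamine, and Pisd-ps1 and Pisd-ps2 are its transcribed pseudogenes. Pisd-ps1 lies on chromosome 11 (GRCm38.p6, 3124002 to 3131945), Pisd-ps2 on chromosome 17 (3064318 to 3084183) and Pisd on chromosome 5 (32736301 to 32785642). A stretch of 90 bases that aligns without gaps in the 3 transcripts is shown. It was chosen for the most differences of Pisd-ps1 from Pisd-ps2 and Pisd together. It is therefore not typical, and other such stretches match at least as closely on that count. The sequences are read from the GENCODE M21 transcripts on GRCm38, in the direction of transcription, and capitals mark the 11 positions at which at least 1 of the 3 differs.
Pisd-ps1: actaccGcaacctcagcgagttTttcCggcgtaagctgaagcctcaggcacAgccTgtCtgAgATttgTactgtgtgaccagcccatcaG
Pisd-ps2: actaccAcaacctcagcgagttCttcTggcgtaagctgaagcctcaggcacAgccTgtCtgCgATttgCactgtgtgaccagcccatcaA
Pisd: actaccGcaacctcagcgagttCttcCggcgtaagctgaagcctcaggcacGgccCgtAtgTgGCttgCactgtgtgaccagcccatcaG

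In this window the pseudogenes differ from each other at 6 positions, Pisd-ps1 differs from Pisd at 8 and Pisd-ps2 from Pisd at 9. Over 1043 aligned bases the pseudogene transcripts are 96.5% identical, with a longest identical run of 81 bases. Pisd-ps1 is 95.1% identical to the coding part of Pisd, with a longest run of 97 bases. Pisd-ps2 is the closest to it, at 96.6% identity with a longest run of 139 bases, and 3.72% of its windows of 100 bases occur unchanged in Pisd. The sources used here do not give how reads matching several copies were counted, so the split of reads among the 3 is uncertain.

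Pisd-ps1 stood at 45.6, 43.6 and 51.1 CPM in the high-dose libraries and at 72.4, 89.3 and 83.4 CPM in the low-dose libraries. The doses did not overlap. The high-dose level was 0.573 of the low-dose level (95% interval 0.464 to 0.706), a log2 difference of -0.80 ± 0.14 (SE), with an unadjusted p of 7.57e-05 in edgeR. In mice given MPTP alone it stood at 295, 236 and 253 CPM, above all 6 inhibitor libraries. Pisd-ps2 stood at 7.63, 6.68 and 7.73 CPM at the high dose and at 10.9, 14.01 and 10.9 CPM at the low dose. Its log2 difference was -0.70 ± 0.16 (unadjusted p = 0.000979), and MPTP alone gave 33.2 to 40.4 CPM. The parent gene Pisd did not separate the doses: 56.0, 56.5 and 54.2 CPM at the high dose overlapped 55.7, 61.0 and 51.7 CPM at the low dose, with a log2 difference of -0.01 (95% interval -0.27 to 0.24). MPTP alone gave 68.7 to 78.2 CPM of Pisd, above all 6 inhibitor libraries.

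The other 8 leading genes on the lower side did not pass the adjusted threshold in edgeR either, with adjusted p at 1. Gpr35, a G protein-coupled receptor, stood at 2.05, 1.27 and 1.801 CPM at the high dose and at 4.50, 3.46 and 4.48 CPM at the low dose, a log2 difference of -1.28 ± 0.30. MPTP alone lay between, at 3.12 to 3.41 CPM. Krt80, a type II keratin, stood at 0.603, 1.19 and 0.724 CPM against 4.71, 2.27 and 4.52 CPM, a log2 difference of -2.19 ± 0.52. MPTP alone held 0.176 to 0.268 CPM of Krt80, below both doses.

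Tagln, the actin-binding transgelin of smooth muscle, stood at 1.14, 1.19 and 0.791 CPM at the high dose and at 3.27, 3.28 and 2.49 CPM at the low dose (log2 difference -1.53 ± 0.39). Col12a1, a fibril-associated collagen, stood at 13.6, 10.5 and 11.6 CPM against 29.2, 16.2 and 22.6 CPM (-0.93 ± 0.25). For both genes the 3 libraries of each dose lay apart. The remaining 4 were more abundant transcripts with smaller differences: the endocytic adaptor Epn1 (-0.41), the septin gene Sept5 (-0.55), the poly(A)-binding protein gene Pabpc1 (-0.41) and Wsb2 (-0.29), whose protein carries a SOCS box. Sept5 stood at 336, 357 and 309 CPM at the high dose and at 498, 404 and 567 CPM at the low dose, with 211 to 239 CPM under MPTP alone.

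On the higher side the first 2 of 10 leading genes share a locus. Ttc39a, a tetratricopeptide repeat gene on chromosome 4 (109394147 to 109444749), stood at 8.57, 6.44 and 8.03 CPM at the high dose and at 4.15, 4.48 and 4.12 CPM at the low dose. Its log2 difference was 0.85 ± 0.20 (unadjusted p = 0.000861 and adjusted p = 1 in edgeR). Ttc39aos1, a long noncoding RNA within Ttc39a on the opposite strand (109402279 to 109406257), stood at 13.4, 9.80 and 15.5 CPM against 7.61, 7.44 and 7.06 CPM (0.81 ± 0.20). Since the strand setting of the counting is not given, reads of this pair cannot be told apart. Under MPTP alone the levels were 13.9 to 15.7 CPM and 30.9 to 32.4 CPM, above both doses.

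Wnt9b, a secreted Wnt ligand, had the largest estimate among the 10, at 5.13, 1.22 and 2.76 CPM against 0.506, 1.01 and 0.946 CPM. Its log2 difference of 1.89 had a 95% interval from 0.68 to 3.10, and the nearest libraries of the doses, 1.22 and 1.01 CPM, were close. Ndufab1, the mitochondrial acyl carrier protein and a subunit of respiratory complex I, stood at 71.5, 77.6 and 74.0 CPM against 58.0, 60.0 and 61.0 CPM (0.32 ± 0.09). Kcnip1, which binds Kv4 potassium channels, stood at 44.2, 44.1 and 52.7 CPM against 36.0, 34.7 and 32.5 CPM (0.45 ± 0.12). The other 5 were the axonemal dynein gene Dnah7b (0.55), Slc35g2 (0.54), the galectin gene Lgals8 (0.35), Klhdc9 (0.52) and the tumour necrosis factor receptor family gene Relt (0.63). None of the 10 passed the adjusted threshold.

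**Figure D2:**
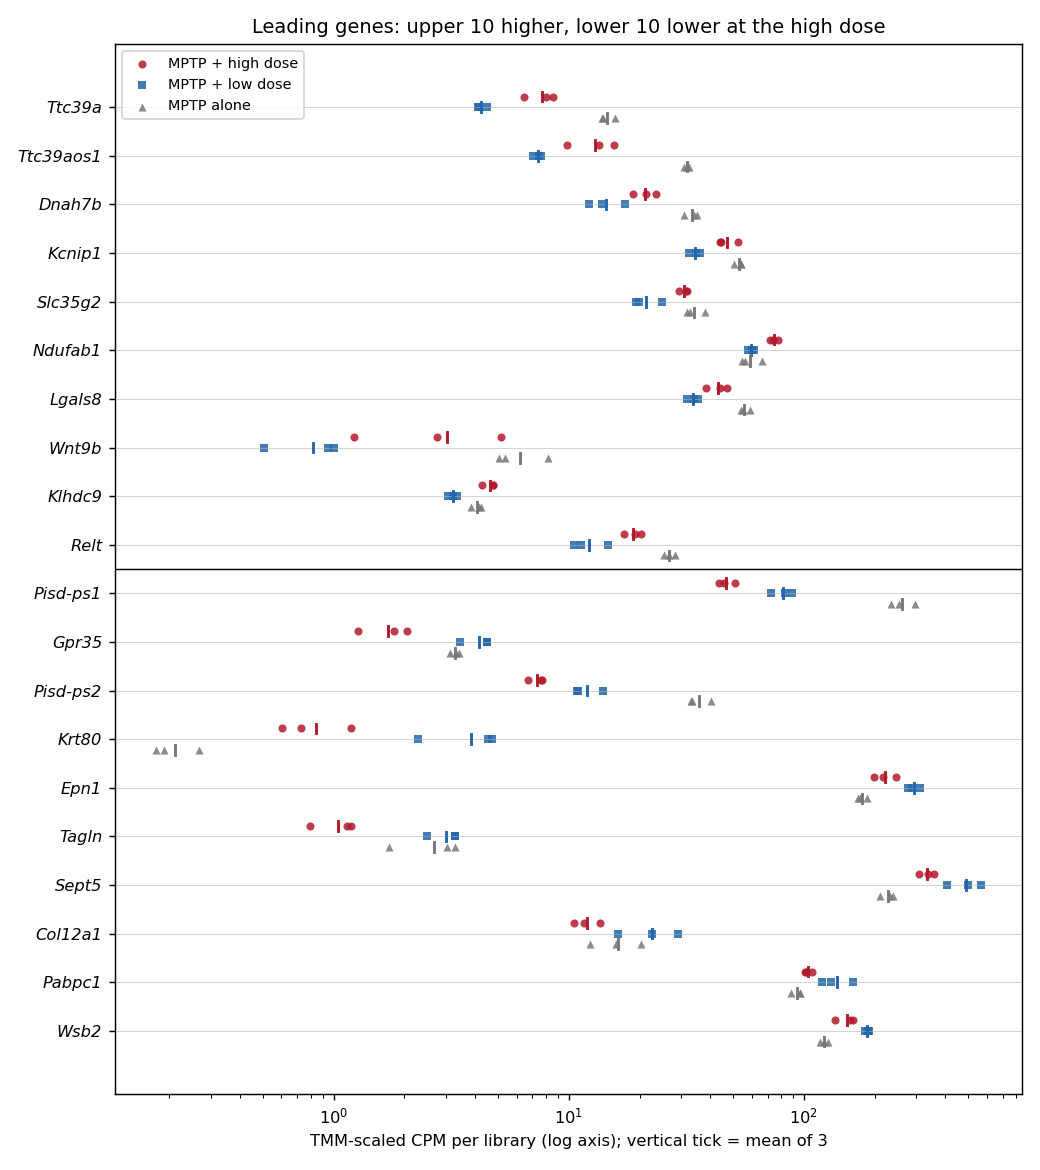
Levels (horizontal axis, TMM-scaled CPM, log scale) of the 20 leading genes in each high-dose, low-dose and MPTP-alone library, with a vertical tick at each mean of 3. The doses do not overlap in any of the 20, which the rule for choosing them required; all MPTP-alone libraries lie above both doses for Pisd-ps1, Pisd-ps2, Ttc39a, Ttc39aos1, Dnah7b, Slc35g2, Lgals8 and Relt, and below both for Krt80, Epn1, Sept5, Pabpc1 and Wsb2.

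Libraries of the same dose were about as far apart as libraries of different doses. The 6 same-dose pairs correlated at 0.978 to 0.984 across genes on the log2 CPM scale, and the 9 different-dose pairs at 0.976 to 0.985, where genes are not independent replicates. The share of genes of at least 1 CPM that differed by more than 2-fold was 1.75% to 4.04% within a dose and 1.55% to 5.03% between doses. On the first principal component of the 6 libraries, with 31.5% of the variance, low-dose library 2 (25.2) lay among the high-dose libraries (28.3, 2.81 and 38.3), away from the other low-dose libraries (-36.8 and -57.9). Total counts were 58149722 to 61998459 reads, so that 3 reads correspond to 0.0487 to 0.0526 CPM. Chi-square per degree of freedom was at least 33.2 for every pair, and no pair was treated as duplicates. The labelled tissue was checked by Mbp, a myelin gene at 5102 to 8118 CPM, and by Slc1a2, the glutamate transporter of astrocytes at 1752 to 2315 CPM.

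Btk and the kinases around it did not separate the doses. Btk (chromosome X, 134542334 to 134583628) was a low transcript, with 60, 38 and 54 reads or 0.978, 0.634 and 0.909 CPM at the high dose. The low dose gave 43, 47 and 52 reads, or 0.725, 0.763 and 0.911 CPM. The doses overlapped, and the log2 difference of 0.07 had a 95% interval from -0.85 to 0.99. MPTP alone held 0.758 to 1.33 CPM. Bulk levels such as these cannot tell fewer cells of a type from less RNA per cell.

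Of 11 listed genes for BTK, its family and its upstream kinases, 9 passed the filter on low counts, and Blk and Txk did not. None of the 9 had an unadjusted p under 0.05 or separated the doses, and 5 had an interval within 2-fold. Among all genes 2.23% had an unadjusted p under 0.05 and 10.6% separated the doses. Syk, the kinase that activates BTK, stood at 3.49, 4.21 and 3.85 CPM at the high dose and at 4.45, 4.04 and 5.19 CPM at the low dose, a log2 difference of -0.24 (95% interval -1.21 to 0.72). Lyn, a SRC family kinase of immune cells, gave -0.06 (-1.24 to 1.12), and Fyn, its abundant neuronal relative, -0.04 (-0.29 to 0.22).

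Below the kinase, 25 adaptor and downstream genes were tested, of which 1 had an unadjusted p under 0.05 and 6 separated the doses, 1 higher and 5 lower. Across all genes tested the libraries of the doses did not overlap for 5.23% in the higher and 5.34% in the lower direction. Blnk, the adaptor that brings BTK to PLCG2, stood at 2.69, 3.09 and 2.12 CPM at the high dose and at 5.82, 3.26 and 6.73 CPM at the low dose. The groups did not overlap, but low-dose library 2 lay next to high-dose library 2. The log2 difference was -1.001 ± 0.38 (unadjusted p = 0.0217, adjusted p = 1 in edgeR). Plcg2 itself overlapped, at 4.33 to 5.12 CPM against 3.70 to 5.26 CPM, as did the NF-kB genes Nfkb1 (log2 difference 0.00) and Rela (-0.11). Among 16 tested genes for receptors linked to BTK, such as Fc and Toll-like receptors, 11 had an interval within 2-fold. None of the 16 had an unadjusted p under 0.05, beside 2.23% of all genes.

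Nr4a2 (chromosome 2, 57106830 to 57124003) stood at 17.0, 23.5 and 14.005 CPM at the high dose and at 18.6, 17.6 and 21.3 CPM at the low dose. The low-dose libraries lay inside the range of the high-dose ones. The log2 difference of -0.08 had a 95% interval from -1.30 to 1.14, which does not leave out a difference of 2-fold in either direction. This interval rests on the spread over all 15 libraries, and MPTP alone held 8.96 to 30.9 CPM of Nr4a2. Its relatives Nr4a1 and Nr4a3, which are early-response genes, stood at 45.1, 92.9 and 60.3 CPM and at 34.7, 37.2 and 19.9 CPM at the high dose. The low dose gave 113, 57.5 and 77.2 CPM of Nr4a1 and 45.7, 48.2 and 45.3 CPM of Nr4a3. Nr4a3 separated the doses, with a log2 difference of -0.60 (95% interval -1.47 to 0.27), and Nr4a1 did not (-0.32).

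The dopamine genes Th, Slc6a3, Ddc and Slc18a2 varied more within a dose than between the dose means. Th, which encodes tyrosine hydroxylase, the first enzyme towards dopamine (chromosome 7, 142892779 to 142899995), stood at 9.88, 13.04 and 40.7 CPM at the high dose and at 7.41, 27.7 and 4.45 CPM at the low dose. Slc6a3, the dopamine transporter (chromosome 13, 73536128 to 73578672), stood at 0.896, 20.3 and 78.1 CPM against 0.607, 47.1 and 1.35 CPM. High-dose library 3 and low-dose library 2 were the highest of their groups for both genes. The log2 difference of Th was 0.68 (95% interval -1.35 to 2.72) and that of Slc6a3 was 1.02 (-3.37 to 5.402), intervals too wide to show a difference of 2-fold.

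Ddc, which makes dopamine from levodopa, and Slc18a2, which loads it into vesicles, had the same 2 libraries on top. Ddc stood at 20.3, 23.9 and 47.0 CPM against 10.9, 34.5 and 13.2 CPM, and Slc18a2 at 11.5, 16.7 and 40.7 CPM against 4.49, 28.2 and 8.13 CPM. MPTP alone held 36.1 to 67.7 CPM of Th and 54.5 to 121 CPM of Slc6a3. All 8 genes for dopamine synthesis, storage and transport had an estimate above 0, beside 48.4% of all genes. Their median was 0.52, and 0 of them separated the doses. Among all genes the shares that separated the doses were 5.23% higher and 5.34% lower at the high dose. Of 10 transcription factors of dopamine neurons, 8 had an estimate above 0, with a median of 0.78, and none separated the doses. Ret, the receptor for glial cell line-derived factors, stood at 28.6, 18.03 and 49.4 CPM against 10.8, 30.0 and 13.4 CPM. Maoa, a monoamine oxidase, was the gene of monoamine breakdown that separated the doses, at 51.1, 54.0 and 58.7 CPM against 38.7, 46.6 and 44.8 CPM (log2 difference 0.33 ± 0.11, unadjusted p = 0.00998).

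**Figure D3:**
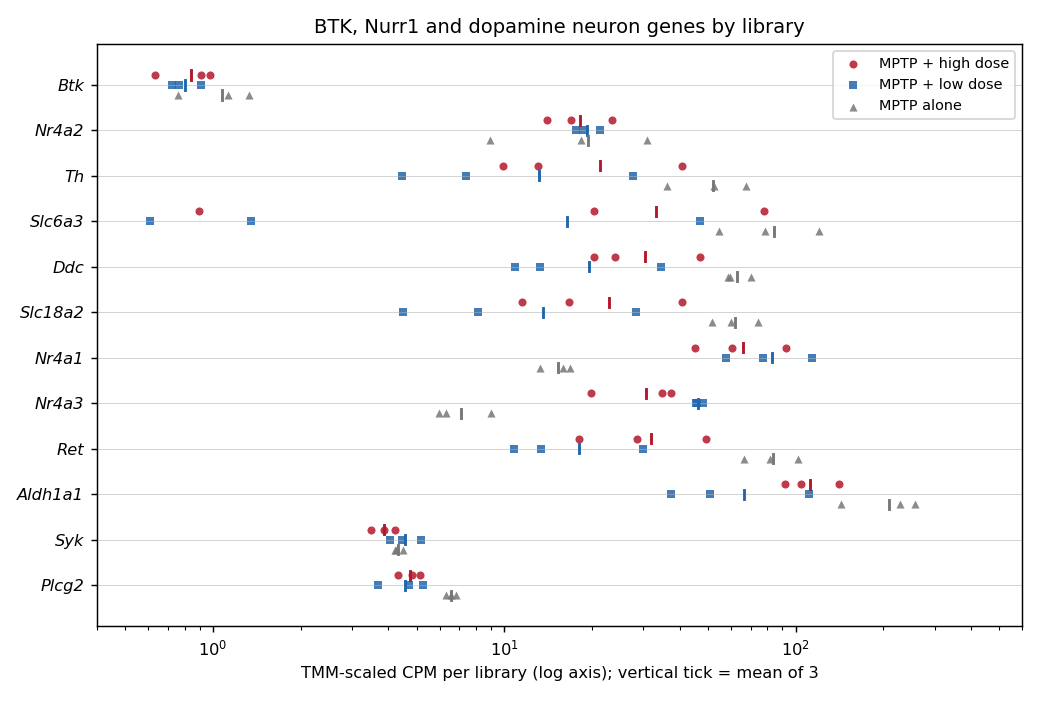
Levels (horizontal axis, TMM-scaled CPM, log scale) of Btk, Nr4a2 and 10 related genes in each high-dose, low-dose and MPTP-alone library, with a vertical tick at each mean of 3. Th, Slc6a3, Ddc and Slc18a2 spread widely within each dose and overlap between the doses, while Nr4a1 and Nr4a3 lie above MPTP alone in all 6 inhibitor libraries.

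Markers of brain regions differed among the 6 libraries, some in the order of the dopamine genes and some not. A score per list, the mean log2 CPM of its tested members centred on the 6 libraries, was 1.14 in high-dose library 3 and 0.80 in low-dose library 2 for dopamine synthesis, against -1.04 in low-dose library 1. For serotonin and noradrenaline neurons these libraries scored 1.24, 0.57 and -1.01. The thalamus and midbrain list did not keep this order, at 0.71 in high-dose library 3, -0.34 in low-dose library 2 and 0.46 in low-dose library 3, and hypothalamic peptides scored -0.14 in high-dose library 3. The cortex and hippocampus list scored -0.90 in high-dose library 3 and -0.12 to 0.40 in the other 5. Neurod6, a transcription factor of those neurons, had 20.0 CPM in high-dose library 3 and 69.6 to 93.3 CPM in the others. With the scores of the cortex, thalamus and cerebellum lists as covariates for every gene, edgeR again called 0 genes. In that fit 805 genes had an unadjusted p under 0.05, against 486 without the covariates. How large a part regional tissue has in the differences between the doses was not tested.

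Striatal genes had lower estimates at the high dose, for 17 of 18 tested members, with a median log2 difference of -0.60. Over all genes 48.4% of estimates were above 0. An interval within 2-fold was found for 1 of the 18, and none had an unadjusted p under 0.05, beside 2.23% of all genes. Penk, the enkephalin precursor, stood at 132, 201.1 and 330.5 CPM against 371, 291 and 439 CPM, and Drd1, a dopamine receptor, at 16.5, 29.1 and 50.7 CPM against 60.9, 52.5 and 56.5 CPM. High-dose library 1 was the lowest for both. Cortex and hippocampus genes had a median of -0.56 over 20 members, and thalamus and midbrain genes a median of 0.46 over 12. Slc17a6, the glutamate transporter of subcortical neurons, stood at 134, 106 and 161 CPM against 36.5, 92.6 and 83.4 CPM, without overlap (0.92, 95% interval -0.77 to 2.60).

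Some of the 15 hypothalamic peptide genes differed widely between libraries of 1 dose, while Npy, at 21.8 to 36.7 CPM at the high dose and 37.1 to 53.7 CPM at the low dose, did not. Pmch, the melanin-concentrating hormone precursor, stood at 292, 175 and 159 CPM at the high dose and at 0.321, 98.7 and 7.48 CPM at the low dose, so that low-dose libraries 1 and 3 were nearly without it. Its log2 difference of 2.55 had a 95% interval from -1.46 to 6.57. Pomc, the precursor of melanocortins, went the other way through 1 library, with 95.8 CPM in low-dose library 1 and 1.89 to 7.32 CPM in the other 5. Ttr, transthyretin of the choroid plexus, stood at 258, 769.7 and 1414 CPM against 846, 1329.8 and 1269 CPM, and under MPTP alone at no more than 7.64 CPM. The 16 choroid plexus genes had a median of -0.49, and none had an interval within 2-fold. None of the 14 Hox genes of the hindbrain passed the filter on low counts.

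**Figure D4:**
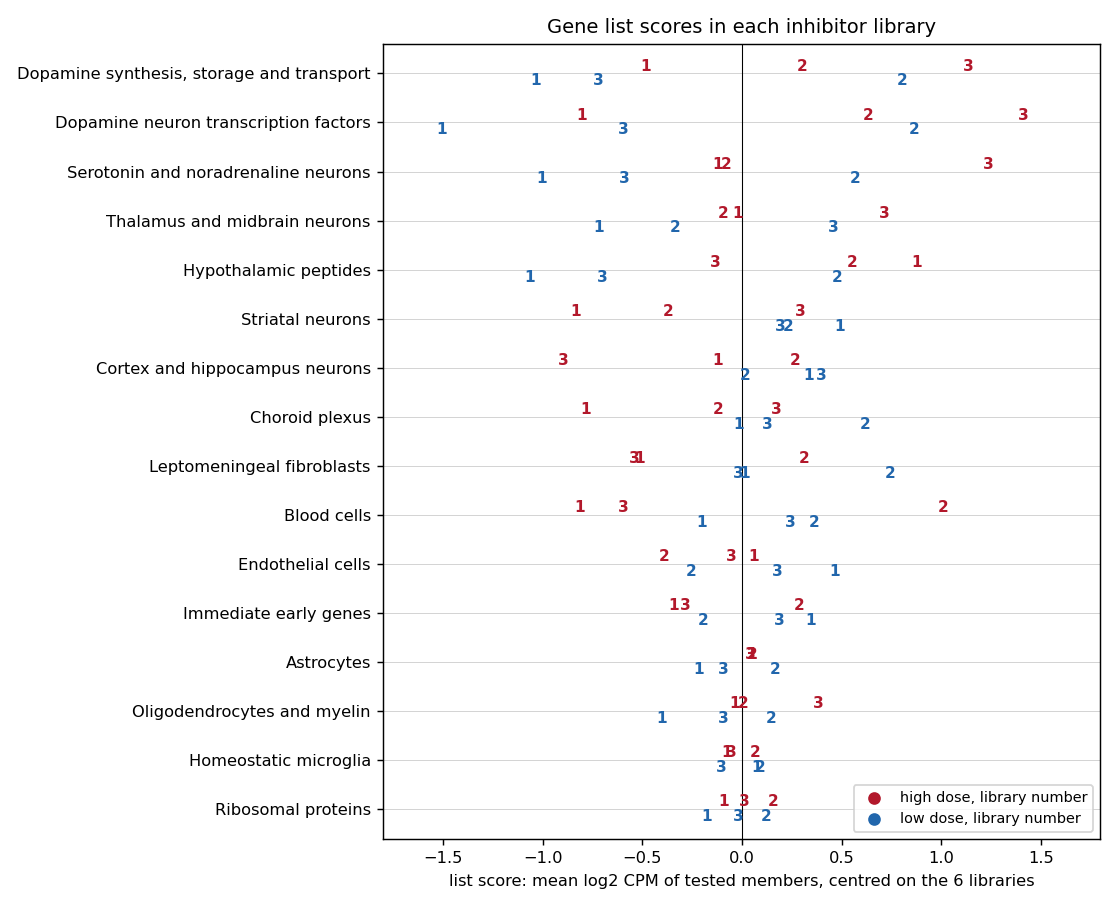
Score of each gene list (horizontal axis, mean log2 CPM of tested members, centred on the 6 inhibitor libraries) in each library, with the digit giving the library number and the colour the dose. The 7 lists of neurons at the top spread by more than 1 log2 unit within at least 1 dose, as does the list of blood cells (-0.81 to 1.01 at the high dose). The lists of astrocytes, microglia and ribosomal proteins lie within 0.25 of 0.

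The lists of microglia, astrocytes and oligodendrocytes held no gene with an unadjusted p under 0.05, beside 2.23% of all genes. Of 20 genes of homeostatic microglia, 13 had an interval within 2-fold, and the median log2 difference was -0.06. Of these genes 2 separated the doses, both lower at the high dose, as did 1 of 15 tested genes of activated microglia. Cx3cr1, the fractalkine receptor, stood at 36.5, 39.9 and 34.8 CPM against 41.8, 35.5 and 33.2 CPM (0.01, 95% interval -0.80 to 0.82). C1qa, a complement subunit made by microglia, gave -0.03 (-0.77 to 0.70), and P2ry12, a purine receptor of resting microglia, 0.24 (-0.64 to 1.12). Of 14 astrocyte genes 11 had an interval within 2-fold, with a median of 0.06. Aqp4, the water channel of astrocyte endfeet, separated the doses at 151.4, 170.02 and 166 CPM against 109, 151.3 and 116 CPM, so that high-dose library 1 and low-dose library 2 were nearly equal (0.38, 95% interval -0.27 to 1.02). Sox9, a transcription factor of astrocytes, separated them the other way, at 27.0, 23.3 and 25.3 CPM against 27.1, 27.8 and 32.1 CPM (-0.20, 95% interval -0.48 to 0.07). All 15 genes of oligodendrocytes and myelin had an estimate above 0, beside 48.4% of all genes. Their median was 0.22, and 1 of them, Nkx6-2, separated the doses. The share of all genes that separated the doses was 5.23% in the higher and 5.34% in the lower direction. The score of this list was highest in high-dose library 3 (0.38) and lowest in low-dose library 1 (-0.40).

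Of 20 listed inflammatory genes 14 could be tested, and Il6, Tnf, Il10, Il12b, Ccl2 and Ccl5 did not pass the filter on low counts. Icam1, an adhesion molecule of endothelium and leukocytes, stood at 1.63, 0.901 and 0.926 CPM at the high dose and at 1.75, 3.31 and 2.58 CPM at the low dose. The doses did not overlap, with high-dose library 1 next to low-dose library 1. The log2 difference was -1.14 ± 0.37 (unadjusted p = 0.0096, adjusted p = 1 in edgeR). C1s1, a complement protease, stood at 0.652, 0.684 and 0.539 CPM against 1.74, 0.958 and 1.23 CPM (-1.06 ± 0.39). Of 20 interferon response genes none had an unadjusted p under 0.05, beside 2.23% of all genes, and 12 had an interval within 2-fold.

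Among 12 genes of pericytes and smooth muscle, 2 had an unadjusted p under 0.05, Tagln and Myh11, and 4 separated the doses, all lower at the high dose. Over all genes these shares were 1.16% and 5.34% in the lower direction, and no adjusted p passed. Acta2, smooth muscle actin, stood at 4.73, 2.85 and 4.17 CPM against 8.55, 4.82 and 5.29 CPM (-0.67, 95% interval -1.35 to 0.02). Myh11, smooth muscle myosin, stood at 2.79, 2.15 and 2.83 CPM against 7.49, 2.37 and 4.64 CPM and overlapped. The median over the 12 was -0.17 and 7 had an interval within 2-fold. Endothelial genes had a median of -0.34 over 14 members, and 0 separated the doses. Flt1, a VEGF receptor, stood at 25.6, 15.5 and 21.0 CPM against 39.7, 18.1 and 34.2 CPM, and at 53.3 to 89.4 CPM under MPTP alone. Library 2 was the lowest of each dose.

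Activity genes were also mixed within the doses. Of 23 tested immediate early genes 1 had an unadjusted p under 0.05, Klf4, and 3 separated the doses, all lower at the high dose, with a median of -0.21. Arc, a synaptic early-response gene, stood at 106, 192 and 104 CPM against 214, 117 and 159 CPM, and Egr1 at 119.5, 254 and 172 CPM against 293, 195 and 301 CPM. For both genes high-dose library 2 lay within the low-dose range. Among 19 scaffold and vesicle genes of synapses 6 separated the doses, all lower at the high dose. Vamp2, a vesicle fusion protein, stood at 850.3, 865 and 738 CPM against 1017, 886 and 1104 CPM (-0.29 ± 0.11, unadjusted p = 0.0224), and Homer1, a scaffold of excitatory synapses, had an estimate of -0.69. Among 17 receptor subunits for GABA and glycine 5 separated the doses, all higher at the high dose: Gabrb2, Gabrg1, Glra2, Glra3 and Glra4. None of the 5 had an unadjusted p under 0.05. Over all genes 5.23% separated the doses in the higher and 5.34% in the lower direction, and nothing particular to these lists was tested.

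Lists of housekeeping genes had intervals within 2-fold throughout. All 57 tested ribosomal protein genes had an interval within 2-fold, with a median of 0.01 and estimates from -0.31 to 0.29. So did all 36 nuclear subunits of complex I, with a median of 0.11, and all 38 of complexes II to V, with a median of 0.09. In these lists 29 of 36 and 29 of 38 estimates were above 0, beside 48.4% of all genes. Members of a list come from the same libraries and are not independent replicates. Besides Ndufab1 the subunit genes Ndufb4, Cox5a and Atp5c1 had an unadjusted p under 0.05. These were 2 genes in each list, all higher at the high dose, beside 1.06% of all genes in that direction. Cox5a, of cytochrome c oxidase, stood at 123, 127 and 124 CPM against 94.3, 109 and 113 CPM (0.24 ± 0.11). The 13 mRNAs of the mitochondrial genome had a median of 0.10, and all had an interval within 2-fold. These mRNAs took 6.36% to 9.56% of the reads, with the lowest share in low-dose library 2 and the highest in high-dose library 2.

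Among 20 unfolded protein response genes 3 separated the doses, all lower at the high dose. Ddit3 and Creld2 of this list had an unadjusted p under 0.05, as did Hspa1a and Hspa1b of 14 heat shock genes. The heat shock list and the list of 22 antioxidant genes each held 1 gene that separated the doses higher and 1 lower. Over all genes these shares were 5.23% and 5.34%, and 1.16% were lower with an unadjusted p under 0.05. Cdkn1a, the p21 cell cycle inhibitor, stood at 7.95, 7.83 and 8.47 CPM at the high dose and at 16.2, 11.1 and 13.1 CPM at the low dose, without overlap (-0.74 ± 0.24, unadjusted p = 0.0104). MPTP alone gave 5.37 to 6.30 CPM. Ddit3, a transcription factor of the unfolded protein response, stood at 21.3, 21.9 and 23.01 CPM against 23.1, 26.5 and 36.9 CPM (-0.39 ± 0.16). The heat shock gene Hspa1a had a lower estimate (-0.96) through low-dose library 2, with 56.5 CPM against 12.4 to 20.4 CPM in the other 5 libraries, and Hspa1b, its near-identical neighbour, had the same library on top. All 22 antioxidant genes and all 16 genes of cholesterol synthesis had an interval within 2-fold.

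**Figure D5:**
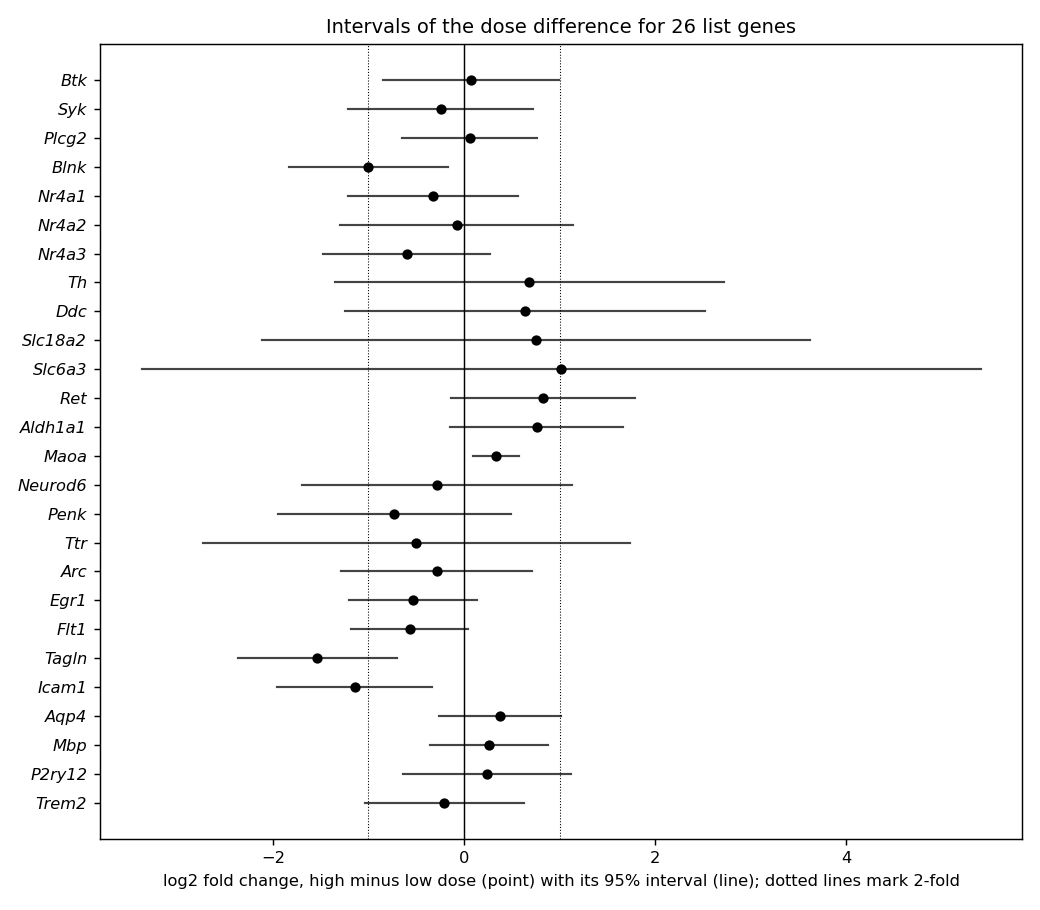
Log2 difference between the doses, high minus low (horizontal axis, point), with its 95% interval from edgeR (line), for 26 genes of the lists; dotted lines mark 2-fold. The intervals of Blnk, Maoa, Tagln and Icam1 leave out 0 before adjustment for the number of genes tested, and that of Slc6a3 is the widest drawn.

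Over all lists, 817 different genes were tested and 0 were called. At an unadjusted p of 0.05, 21 (2.57%) passed, 7 higher and 14 lower, beside 2.23% of all genes. The doses did not overlap for 94 (11.5%), 32 higher and 62 lower, beside 10.6% of all genes. The interval lay within 2-fold for 486 (59.5%), beside 58.5% of all genes.

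Genes with reads in every library of 1 dose and in none of the other had at most 25 reads in a library. Of 30296 symbols with a read at either dose, 137 (0.452%) had reads in all 3 libraries of 1 dose and in none of the other, 78 at the high dose (0.257%) and 59 at the low dose (0.195%). The highest was Gm2065, a predicted long noncoding RNA, with 25, 21 and 23 reads at the high dose and 0 at the low dose. With the low-dose group set at 3 reads, the ratio of pooled reads, scaled to library size, was 22.7. That ratio takes no account of the spread between libraries. The unadjusted p of Gm2065 was 0.00452, its adjusted p in edgeR 1, and MPTP alone held 31, 31 and 0 reads. Ocm, which encodes oncomodulin, had 10, 4 and 19 reads at the low dose and 0 at the high dose. Fev, a transcription factor of serotonin neurons, had 10, 9 and 6 reads at the high dose and 0 at the low dose. These genes were chosen after their values were seen.

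Each dose was also set against MPTP alone, in comparisons that share the MPTP libraries and are therefore given side by side only. Against MPTP, edgeR called 1861 genes (8.53%) at the low dose, 1042 higher (4.78%) and 819 lower (3.75%). At the high dose it called 429 genes (1.97%), 236 higher (1.08%) and 193 lower (0.884%). These counts do not show that the doses differ, since the direct comparison called 0. Leaving out any 1 library of the groups compared lowered them, to between 421 (without MPTP library 2) and 1300 (without low-dose library 2) for the low dose. For the high dose they fell to between 18 (without MPTP library 2) and 138 (without MPTP library 1). Nr4a1 was 2.43 above MPTP on the log2 scale at the low dose (adjusted p = 0.00835) and 2.11 above it at the high dose (adjusted p = 0.0322). Flt1 was at -1.25 (adjusted p = 0.0209) and -1.82 (adjusted p = 0.0147). Neurod6 was at 5.47 (adjusted p = 0.00371) and 5.19 (adjusted p = 0.0126), and Ttr at 8.32 (adjusted p = 0.00706) and 7.82 (adjusted p = 0.0229). For all 4 genes the levels at the doses overlapped.

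By list, 12 of 23 immediate early genes were called higher at the low dose, and 8 higher and 1 lower at the high dose. Of the 14 endothelial genes 8 were called lower at the low dose and 6 at the high dose. The 16 choroid plexus genes gave 8 calls at the low dose and 2 at the high dose, all higher. The 20 cortex and hippocampus genes gave 5 and 2, all higher. The 18 striatal genes gave 4 calls at the low dose, all higher, and 0 at the high dose. The 57 ribosomal protein genes gave 10 and 2, all higher. Over all genes 4.78% were called higher and 3.75% lower at the low dose. At the high dose these shares were 1.08% and 0.884%. Ppp1r1b, the striatal phosphoprotein DARPP-32, was 3.72 above MPTP at the low dose (adjusted p = 0.0148) and 2.96 above it at the high dose (adjusted p = 0.0607). Its levels were 98.1, 168 and 299 CPM at the high dose and 355, 305 and 297 CPM at the low dose, and they overlapped.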

How the data were processed

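Messenger RNA was sequenced from 15 mouse brain libraries (TruSeq Stranded mRNA, per the labels). Each deposited file holds raw counts of reads for 45777 gene symbols. Per the submitters' processing notes, the authors used HISAT2 2.1.0, StringTie 2.1.3b, Trimmomatic and bcl2fastq 2.20.0 with GRCm38. The sources used here do not give the annotation, the strand setting or the treatment of reads shared by genes. The deposited files of the 6 inhibitor libraries have fewer empty trailing columns than the other 9, so a difference in handling and the inhibitor cannot be told apart in comparisons with MPTP.

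The test was edgeR 4.0.16 (R 4.3.3) on the counts, with TMM scaling, the filterByExpr filter, the quasi-likelihood test in a model of the 5 groups over all 15 libraries, and Benjamini-Hochberg adjustment at 0.05. Standard errors were obtained by dividing the log2 difference by the root of F, and 95% intervals use the t quantile. Total counts of the compared libraries were 58149722 to 61998459 reads. The members and the 55 gene lists (861 of 903 entries tested) were chosen with earlier results of these data known. Symbols of the mitochondrial mRNAs and of 1 histone gene were matched by alias after the files were seen.

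Leading genes are the 10 per direction with the smallest unadjusted p among genes of at least 1 CPM whose doses do not overlap, without predicted genes, since none passed the adjusted threshold. To these the rule added the study genes (Btk, Nr4a2, Th, Slc6a3, Ddc, Slc18a2) and the 3 members of each list with the smallest p. Other named list members, such as Neurod6, Ttr, Arc, Egr1, Plcg2, Ppp1r1b, Aqp4, Mbp, Slc1a2, P2ry12, Cx3cr1 and C1qa, were chosen after their values were seen. Coordinates are RefSeq's for GRCm38.p6. The test was also run on counts simulated with the spread from the fit of all 15 libraries, and the outcome is not reported here. Such counts cannot show whether that spread suits the 6 inhibitor libraries. Alternatives were RLE and upper-quartile scaling, a filter of 5 CPM in 3 libraries, no filter, DESeq2 1.42.0, the 6 inhibitor libraries only, all libraries without control 2 and levodopa 2, the replicate block, regional list scores as covariates, and each library left out in turn. Results for some genes and lists are not reported here.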

Additional observations from a re-analysis of the deposited data

How the results depend on the processing

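Between the doses edgeR called 0 genes under every alternative run, and DESeq2 called 2. At an unadjusted p of 0.05 the edgeR settings gave from 307 genes, when a library was left out, to 1280, without control 2 and levodopa 2. The number of genes with an interval within 2-fold ran from 10767 of 12948 (filter of 5 CPM) to 15627 of 33141 (no filter). As a share of the genes tested, the first of these is the larger. The number ran from 11346 of 22494 to 11831 of 22438 when a library was left out. For the low dose against MPTP, DESeq2 called 3412 genes, no filter 1224, and leaving out a library 421 (MPTP 2) to 1300 (low dose 2), with 426 without MPTP 3, 627 without low dose 3, 884 without MPTP 1 and 1074 without low dose 1. For the high dose against MPTP, DESeq2 called 1742, no filter 214, and leaving out a library 18 (MPTP 2) to 138 (MPTP 1), with 21 without MPTP 3, 22 without high dose 2, 43 without high dose 1 and 92 without high dose 3. The causes were not tested. Same-numbered libraries of the doses did not pair throughout (correlations of deviations 0.188, -0.150 and -0.0673). High-dose library 3 with low-dose library 2 gave 0.187, and high-dose library 2 with low-dose library 3 gave 0.182. No fit used this matching. The fit with the replicate block, which follows the library numbers, called 0 genes, with 1085 at an unadjusted p of 0.05 and 14556 intervals within 2-fold. Of the genes named by the rule, 1 value passed the threshold under an alternative, Pisd-ps1 in DESeq2 (adjusted p = 0.0026). Trpc2, outside the rule, was the other DESeq2 call (adjusted p = 0.0273). Estimates of the rule's genes turned sign in 15 of 1032 values with a library left out and in 11 of 1493 others. List medians turned sign in 30 of 324 and 17 of 486 values. Depth limits Btk, with 38 to 60 reads per library.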
